A study of Mus musculus with 37 samples.

Results

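NRF2, encoded by Nfe2l2, is a transcription factor that is held in the cytoplasm by KEAP1 and degraded, and that enters the nucleus when oxidants or electrophiles modify KEAP1. With a small MAF protein as its partner it binds the antioxidant response element of genes that make glutathione, attach it to reactive compounds, reduce peroxides and quinones, and keep thioredoxin reduced. The urothelium, which lines the ureter and the bladder, is exposed to carcinogens excreted in urine, and enzymes of this pathway clear such compounds. Described here are 10 genes of the pathway, which were picked by symbol from the 24421 gene symbols of the count table. They are the regulator Nfe2l2, the target genes Nqo1 and Hmox1, 3 genes of glutathione supply (Slc7a11, Gclc and Gclm), the glutathione transferases Gsta4 and Gstm1, the glutathione peroxidase Gpx2 and the thioredoxin reductase Txnrd1.

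RNA of the urinary tract of female BALB/c mice was sequenced in 37 libraries from 13 mice. Mice were given BBN (N-butyl-N-(4-hydroxybutyl)nitrosamine, a bladder carcinogen) in drinking water for 18 weeks, and control mice were given tap water. The libraries of BBN-treated mice called UT come from a side of the upper tract that held cancer (11 libraries from 10 mice), and those called UN from a side without cancer (7 libraries, 1 per mouse). U stands for the ureters of control mice (6 libraries, right and left of 3 mice). The remaining libraries are 10 bladders of the BBN-treated mice and 3 bladders of the untreated mice. No animal carried an engineered allele. UT 9 and BBN bladder 6 were left out of the main tests, because UT 9 is not drawn among the study's clustered libraries and the name of the library of BBN bladder 6 carries the letter used for tumor. Levels are given as CPM, the counts of a gene in every 1000000 counts of its library.

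Library totals ranged from 3557697 to 18793560 counts, and 4 libraries (UN 6 and BBN bladders 1, 3 and 4) had fewer than 8000000. Marker genes set some libraries apart. The summed level of 12 urothelium markers was 32.9 CPM in UN 2, against 1141 to 8574 CPM in the other UN libraries and 1831 to 3660 CPM in U, so the defining markers of the lining were nearly absent from UN 2. The summed level of 9 kidney tubule markers was 2766 CPM in UT 4 and at most 68.3 CPM in each of the other libraries of the main tests. Summed adipocyte markers ran from 12288 to 16507 CPM in U, from 2111 to 13207 CPM in UN and from 9.94 to 5421 CPM in the 10 UT libraries, and were 22.9 to 475 CPM in the untreated bladders. In such bulk tissue, fewer cells of a type and less RNA per cell cannot be told apart.

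RefSeq promoter sequences on GRCm38.p6 were matched by symbol for 7 of the 10 genes, and not for Hmox1, Gclc and Gsta4. The 250 bases before each transcription start were searched on both strands for TGACNNNGC, the core of the antioxidant response element, and for TGACTCA, an AP-1 site whose first 4 letters it shares. TGACNNNGC was present before at least 1 start of 3 of the 7 genes, Gclm, Txnrd1 and Nfe2l2, and TGACTCA in none of the windows. Among all 32851 windows of the same length, 10.2% held TGACNNNGC and 4.46% held TGACTCA, and by gene the shares were 11.5% and 5.16% of 27025. The windows of these 3 genes are shown because they carry the match (in capitals), and those of Gpx2 and Slc7a11 because these genes were called higher after BBN in both organs. The windows are chr3:122245307-122245556 on the plus strand for Gclm, chr10:82858956-82859205 on the plus strand for the second of 3 starts of Txnrd1, chr2:75704664-75704913 on the minus strand for Nfe2l2, chr12:76795555-76795804 on the minus strand for Gpx2 and chr3:50443614-50443863 on the minus strand for Slc7a11.
Gclm: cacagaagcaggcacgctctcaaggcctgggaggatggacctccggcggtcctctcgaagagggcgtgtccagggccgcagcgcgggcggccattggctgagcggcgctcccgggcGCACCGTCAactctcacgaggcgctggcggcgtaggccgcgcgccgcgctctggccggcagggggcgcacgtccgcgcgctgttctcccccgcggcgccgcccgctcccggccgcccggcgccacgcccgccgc
Txnrd1: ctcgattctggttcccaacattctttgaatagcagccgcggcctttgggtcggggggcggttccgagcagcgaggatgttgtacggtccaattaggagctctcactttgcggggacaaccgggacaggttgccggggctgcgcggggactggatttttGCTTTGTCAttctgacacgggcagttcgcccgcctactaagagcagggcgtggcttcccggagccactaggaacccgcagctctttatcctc
Nfe2l2: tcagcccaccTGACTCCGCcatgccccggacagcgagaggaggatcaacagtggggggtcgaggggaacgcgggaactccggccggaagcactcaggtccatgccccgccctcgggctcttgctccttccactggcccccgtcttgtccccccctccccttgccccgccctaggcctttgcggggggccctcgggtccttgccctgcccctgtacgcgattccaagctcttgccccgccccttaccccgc
Gpx2: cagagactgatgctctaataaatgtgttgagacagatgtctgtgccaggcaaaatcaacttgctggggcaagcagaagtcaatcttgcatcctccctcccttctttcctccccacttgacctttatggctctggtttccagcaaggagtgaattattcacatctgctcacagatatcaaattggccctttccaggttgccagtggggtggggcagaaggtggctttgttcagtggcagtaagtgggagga
Slc7a11: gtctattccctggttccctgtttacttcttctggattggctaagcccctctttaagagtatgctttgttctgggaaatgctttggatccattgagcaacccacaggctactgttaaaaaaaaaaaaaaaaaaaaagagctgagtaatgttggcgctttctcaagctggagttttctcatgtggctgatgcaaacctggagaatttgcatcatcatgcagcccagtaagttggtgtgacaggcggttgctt
The match of Gclm lies at bases -134 to -126 from the start and that of Txnrd1 at bases -92 to -84, both read on the opposite strand, and the match of Nfe2l2 lies at bases -240 to -232 on its own strand. These are matches of letters in a short window, and sites elsewhere were not searched.

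In the ureter and bladder of untreated mice, the genes differed widely in level. Per kilobase of exon (GENCODE vM21), the mean level in U was 2055 ± 338 CPM per kb (SD, n = 6) for Gstm1 and 437 ± 78.6 for Gsta4, the highest of the 10. Nfe2l2 followed at 63.8 ± 5.17 and Gclc at 20.8 ± 3.95 CPM per kb. Nqo1 (14.5 ± 2.38), Hmox1 (13.8 ± 1.42) and Txnrd1 (13.7 ± 1.32) were within their SDs of each other, and Gclm had 10.8 ± 0.622 CPM per kb. Gpx2 (4.51 ± 1.40) and Slc7a11 (0.523 ± 0.0810) were lowest in U. The order was otherwise in the UT libraries, where Gpx2 had 361 ± 166 CPM per kb (SD, n = 10), below only Gstm1 (1171 ± 709) and Gsta4 (999.7 ± 466.1).

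**Figure D1:**
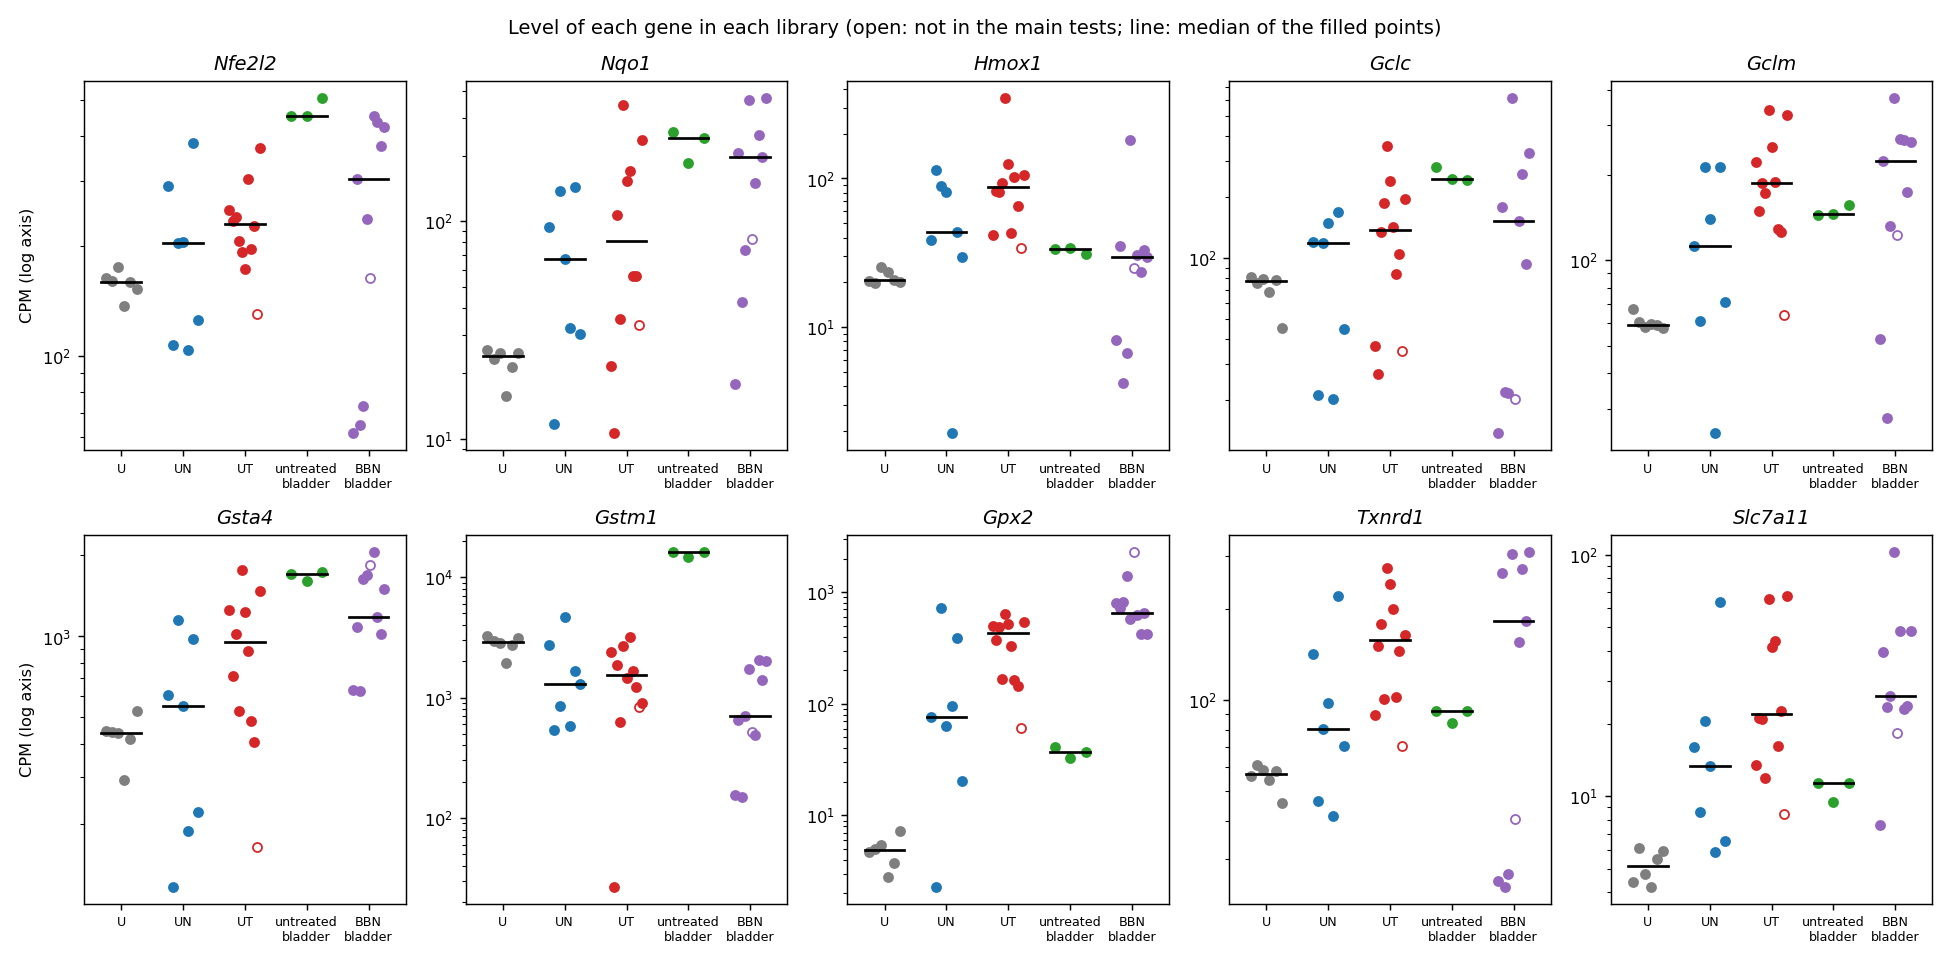
Level of each of the 10 genes in each library, in CPM on a log axis, for the groups U, UN, UT, untreated bladder and BBN bladder. Each point is a library, open points are UT 9 and BBN bladder 6, and lines are medians of the filled points. Gpx2 lies between 2.82 and 7.19 CPM in U and between 146 and 632 CPM in UT, and Gstm1 is lower in each BBN bladder than in each untreated bladder.

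A gene was called when its adjusted p (FDR, Benjamini-Hochberg over all genes tested) was under 0.1 and its fold change at least 2, in edgeR's quasi-likelihood test. In UN against U, 3 of the 10 genes were called, all higher (Gpx2, Slc7a11 and Nqo1), where 13.5% of the 15615 genes tested passed (11.9% upward and 1.65% downward). That split varied with the test, and was 7.19% upward and 4% downward with limma-trend, or 5.51% and 4.78% once mouse was a random effect. For UT against U, 6 were called higher (Gpx2, Slc7a11, Nqo1, Hmox1, Gclm and Txnrd1) and 1 lower (Gstm1), where 32.9% of all genes passed (18.6% upward and 14.4% downward). In UT against UN, 0 of the 10 were called, where 10.8% of all genes were (2.8% higher and 7.97% lower). In BBN bladder against untreated bladder, 2 were called higher (Gpx2 and Slc7a11) and 1 lower (Gstm1), where 12.6% of 17984 genes were called (7.08% higher and 5.47% lower). The median log2 fold change of the 10 genes was 0.72 in UN and 1.34 in UT against U, beside 0.08 over all genes in each of these comparisons, and 0.11 in the bladder, beside 0.23 over all genes. By range, 5 of the 10 genes had each UT library above each U library, as had 20.7% of all genes. In the bladder 1 of the 10 was higher and 1 lower after BBN without overlap, beside 5.5% and 12.5% of all genes. UN against U and UT against U share the 6 U libraries.

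**Figure D2:**
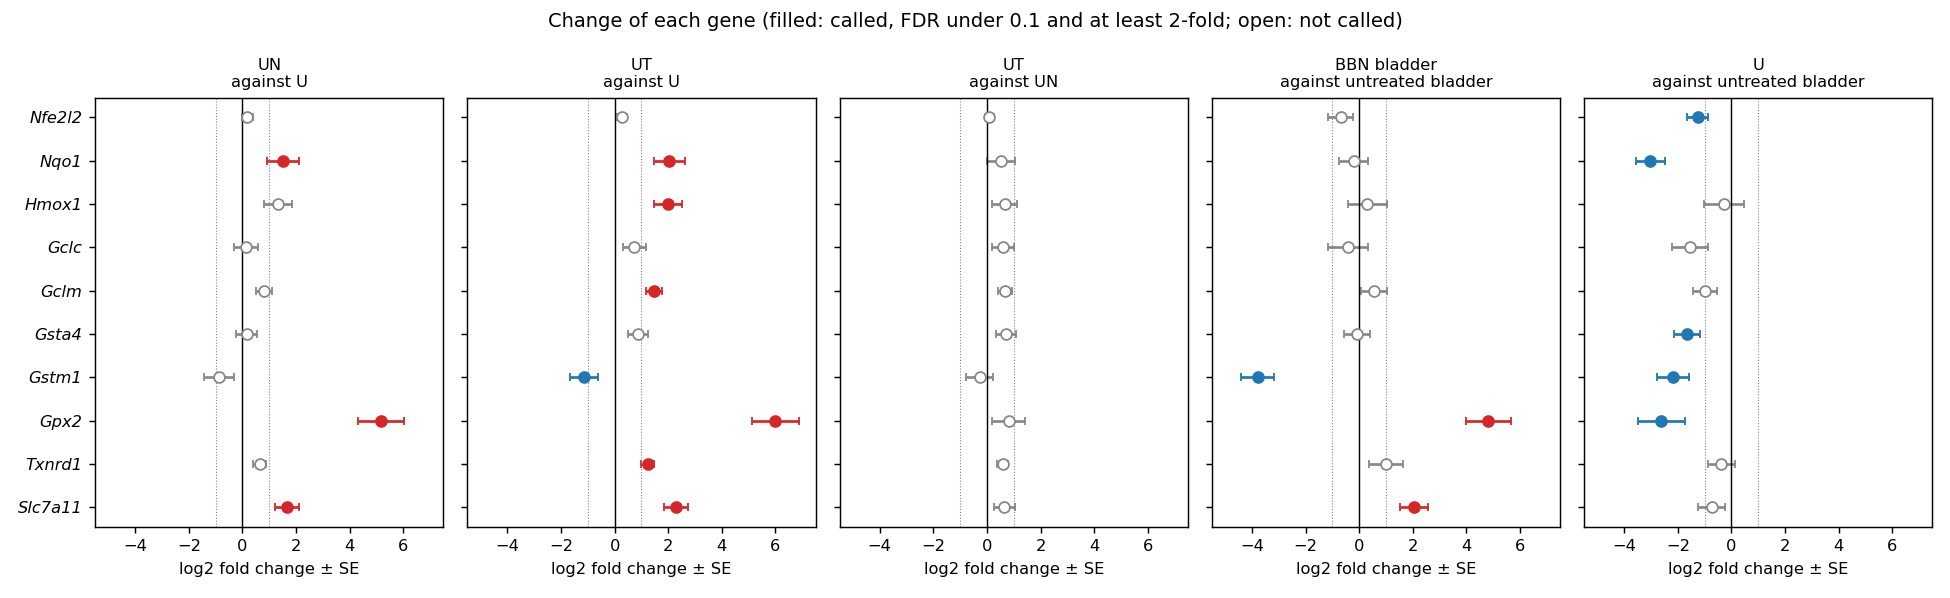
Log2 fold change ± SE of the 10 genes in 5 comparisons, with filled points for called genes and dotted lines at a 2-fold change. Gpx2 has the largest change in UN and UT against U (5.18 and 5.99) and in the bladder after BBN (4.82), while Nfe2l2 lies at 0.19, 0.28 and -0.70 in the same comparisons.

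The regulator Nfe2l2 was not called in any comparison of BBN-treated with untreated tissue. Its level in U was 137 CPM at the lowest, 160 at the median and 176 at the highest, and the corresponding values were 104, 203 and 381 CPM in UN and 172, 230 and 371 CPM in the 10 UT libraries. UN libraries lay on both sides of the U range, with 4 above and 3 below it, and 9 of the 10 UT libraries lay above it. The log2 fold change was 0.19 ± 0.20 (SE) in UN against U (edgeR, FDR = 0.554) and 0.28 ± 0.19 in UT against U (FDR = 0.227). In the untreated bladders it stood at 452, 452 and 508 CPM, and in the 9 BBN bladders it ranged from 61.6 to 453 CPM around a median of 304 CPM. All BBN bladders but 1 were below the untreated range, with a log2 fold change of -0.70 ± 0.46 (FDR = 0.324). NRF2 is regulated largely through the stability of the protein, which RNA counts do not measure.

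Nqo1, a quinone reductase and a classical NRF2 target, was higher in most of the BBN-treated ureters. Its lowest, median and highest levels were 15.7, 24.0 and 25.5 CPM in U, 11.7, 67.0 and 144 CPM in UN, and 10.6, 81.5 and 342 CPM in UT. Of the 7 UN libraries 6 were above all U libraries and UN 2 was below them, and of the 10 UT libraries 8 were above and UT 2 was below. Nqo1 was 2.85-fold higher in UN than in U (log2 1.51 ± 0.60 SE, FDR = 0.0938) and 4.12-fold higher in UT (log2 2.04 ± 0.59, FDR = 0.00667). The first of these calls was close to the threshold and was lost when any U library was left out, without UN 1, 3, 4 or 7, and without UT 3, 5L, 6 or 8, at FDRs of up to 0.211. It was also lost with no filter, limma-trend, the mouse as a random effect or the libraries of a mouse summed (FDR of up to 0.375). With the libraries summed, which leaves 3 U samples, the UT call was lost too (log2 1.87, FDR = 0.101), and limma gave log2 fold changes of 1.42 and 1.41 for UT without and with the random effect, both called. Without UN 2, UN 6 and UT 4 the UN call was kept, at a log2 fold change of 1.78 (FDR = 0.0448). In the bladder, the untreated libraries had 186, 242 and 258 CPM and the BBN libraries between 17.8 and 371 CPM with a median of 197 CPM, so the ranges overlapped, and the log2 fold change was -0.21 ± 0.54 (FDR = 0.83).

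Hmox1, which breaks down heme and is also abundant in macrophages, separated UT from U. U libraries had 19.7 to 25.4 CPM with a median of 20.6, UN libraries 1.93 to 114 CPM with a median of 43.5, and UT libraries 41.6 to 349 CPM with a median of 88.0. Each UT library was above each U library, as were 6 of the 7 UN libraries, while UN 6, the shallowest ureter library, was below. The increase was 3.97-fold in UT (log2 1.99 ± 0.52 SE, edgeR FDR = 0.00371). In UN the log2 fold change was 1.32 ± 0.53 with an FDR of 0.1, at the threshold and not called. It was called in 7 of the 12 other settings and in 6 of the 23 fits that left out 1 library, among them that without UN 6 (log2 1.53, FDR = 0.0277), and elsewhere fell to a log2 fold change of 0.68 at the lowest, with FDRs of up to 0.46. Summed macrophage markers (8 genes) moved in the same direction, from 345 to 547 CPM in U, from 239 to 2778 CPM in UN and from 496 to 1963 CPM in UT. Summed neutrophil markers (6 genes) were 11.4 to 24.0 CPM in U, 65.3 to 535 CPM in UN and 47.2 to 635 CPM in UT, with no UN or UT library in the U range. The part of these cells in the Hmox1 values, and in the other increases of the ureter, was not tested. In the bladder Hmox1 was at 31.1, 33.6 and 34.2 CPM without BBN and from 4.22 to 180.5 CPM with it, around a median of 29.4 CPM, and was not called (log2 0.29 ± 0.73, FDR = 0.819).

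Of the genes that supply glutathione, Slc7a11 changed most. It encodes the cystine and glutamate exchanger that brings in cystine, the source of the cysteine in glutathione. Levels in U were 4.21 CPM at the lowest, 5.15 at the median and 6.09 at the highest, against 5.88, 13.4 and 63.6 CPM in UN and 11.9, 21.8 and 67.2 CPM in UT. Each UT library and 6 of the 7 UN libraries were above the U range, with UN 6 inside it. Slc7a11 rose 3.15-fold in UN (log2 1.65 ± 0.45 SE, FDR = 0.02) and 4.93-fold in UT (log2 2.30 ± 0.45, FDR = 0.00032). Both calls were kept when any library was left out, but with the libraries of each mouse summed, which leaves 3 U samples, the UN call was lost (FDR = 0.212). In the untreated bladders Slc7a11 had 9.49, 11.3 and 11.3 CPM, and in the BBN bladders 7.64 to 103 CPM with a median of 26.0 CPM. All but BBN bladder 1 were above the untreated range, a 4.11-fold increase (log2 2.04 ± 0.52, FDR = 0.0253), which was lost when any of the 3 untreated bladders was left out (FDR of up to 0.155).

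Gclc and Gclm encode the catalytic and the modifier subunit of glutamate-cysteine ligase, the rate-limiting enzyme of glutathione synthesis. Their changes were not tested against each other. Gclm had 57.9 to 67.3 CPM in U (median 59.3), 24.6 to 214 CPM in UN (median 112) and 126 to 339 CPM in UT (median 188). No UT library overlapped with U, while 5 UN libraries were above the U range, UN 2 was inside it and UN 6 was below. Gclm rose 2.75-fold in UT (log2 1.46 ± 0.29 SE, FDR = 0.000434), and in UN its log2 fold change of 0.80 ± 0.30 (FDR = 0.0816) was under 2-fold. For Gclc the lowest, median and highest levels were 45.3, 77.1 and 81.0 CPM in U, 20.3, 118 and 170 CPM in UN, and 26.9, 139 and 359 CPM in UT. UN 2, UN 6, UN 9, UT 1 and UT 2 were below all U libraries and the others above. Its log2 fold change was 0.14 ± 0.45 in UN (FDR = 0.86) and 0.74 ± 0.43 in UT (FDR = 0.163). In the bladder neither subunit was called, at log2 fold changes of 0.57 ± 0.49 for Gclm (FDR = 0.454) and -0.42 ± 0.75 for Gclc (FDR = 0.739).

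Gstm1, a mu-class glutathione transferase, was the most abundant of the 10 genes in untreated tissue and the one that fell after BBN. The untreated bladders had 14853, 16156 and 16357 CPM, and the 9 BBN bladders had 150 to 2057 CPM around a median of 705 CPM. Each BBN bladder was thus far below each untreated bladder, and BBN bladder 6, outside the main tests, had 521.5 CPM. The fall was 13.8-fold (log2 -3.79 ± 0.62 SE, edgeR FDR = 0.00175), and it was called without any 1 of the libraries and in the 9 other settings tried, between log2 -4.29 and -3.53. In the 6 BBN bladders with at least 8000000 counts the range was 489 to 2057 CPM. Summed urothelium markers were also lower after BBN, 1563 to 12027 CPM against 23321 to 24444 CPM in the untreated bladders. Summed smooth muscle markers were 1011 to 7447 CPM after BBN and 9289 to 11153 CPM in the untreated bladders, and summed fibroblast markers had medians of 1559 and 6009 CPM. The part of these markers in the fall was not tested.

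In the ureter the same gene varied more between BBN-treated libraries than between groups. Gstm1 had 1950 to 3260 CPM in U (median 2903), 543 to 4662 CPM in UN (median 1291) and 26.7 to 3164 CPM in UT (median 1550). UT 2 stood alone at 26.7 CPM, with the next UT library at 624.9 CPM, and 5 UN and 7 UT libraries were below the U range. The log2 fold change was -0.88 ± 0.57 in UN (FDR = 0.312, not called) and -1.14 ± 0.52 in UT (FDR = 0.0767), a fall. That call was lost without UT 2, 4, 5L, 8 or 10 and without any U library but U 2L (FDR of up to 0.125). It was also lost with no filter, with RNA integrity or the code range as a covariate, and with the libraries of a mouse summed (FDR of up to 0.229). Gstm3, whose sequence is close to that of Gstm1, was counted at 0.496% to 2.72% of the Gstm1 level, and how reads shared between mu-class genes were counted is not given in the sources used here.

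Gsta4, an alpha-class transferase that conjugates the lipid peroxidation product hydroxynonenal, was not called after BBN. Its lowest, median and highest levels were 292, 438 and 530 CPM in U, 117, 552 and 1156 CPM in UN, and 407, 955 and 1773 CPM in UT. Of the UT libraries 8 lay above the U range, and the log2 fold change of 0.87 ± 0.38 SE (FDR = 0.0668) was under 2-fold. UN libraries lay on both sides of the U range (log2 0.16 ± 0.40, FDR = 0.821). In the bladder the untreated libraries had 1614, 1705 and 1740 CPM and the BBN libraries 627 to 2069 CPM with a median of 1185 CPM (log2 -0.08 ± 0.47, FDR = 0.931).

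Gpx2, a glutathione peroxidase of epithelia, had the largest change of the 10 genes in each comparison of BBN-treated with untreated tissue. It was nearly silent in U, at 2.82 CPM at the lowest, 4.85 at the median and 7.19 at the highest. UN libraries had 2.28, 20.4, 63.3, 76.0, 95.3, 386 and 725 CPM, and UT libraries had 146 to 632 CPM with a median of 431 CPM. The UT and U ranges were far apart, and 4 of the 7 UN libraries lay between them. UN 7 was inside the UT range and UN 3 above it, and UN 2, which has almost no urothelium marker counts, was alone below the U range. Gpx2 rose 36.4-fold in UN (log2 5.18 ± 0.86 SE, FDR = 0.000829) and 63.8-fold in UT (log2 5.99 ± 0.88, FDR = 3.47e-05). The UN increase was smaller without UN 3 (log2 4.24, FDR = 0.00162), and limma-trend put it at 3.75, or at 3.74 with a random effect of mouse. It was called in each of these. UT 9, outside the main tests, had 60.6 CPM, above each U library and below the other UT libraries.

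The same gene rose in the bladder. The untreated bladders had 32.5, 37.4 and 41.1 CPM of Gpx2, and the 9 BBN bladders had 419 to 1410 CPM with a median of 647 CPM, with no overlap. The increase was 28.2-fold (log2 4.82 ± 0.83 SE, FDR = 0.00246) and was called without any 1 of the libraries. BBN bladders 1, 3 and 4, the shallow libraries, had 798, 820 and 1410 CPM, above the 6 deeper ones at 419 to 714 CPM, and without them the log2 fold change was 3.92 (FDR = 5.84e-06). BBN bladder 6 had 2315 CPM, the highest value of all libraries. Gpx2-ps1, a pseudogene copy of Gpx2 in the table, followed it at 3.53% to 12.1% of its level over the 37 libraries.

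**Figure D3:**
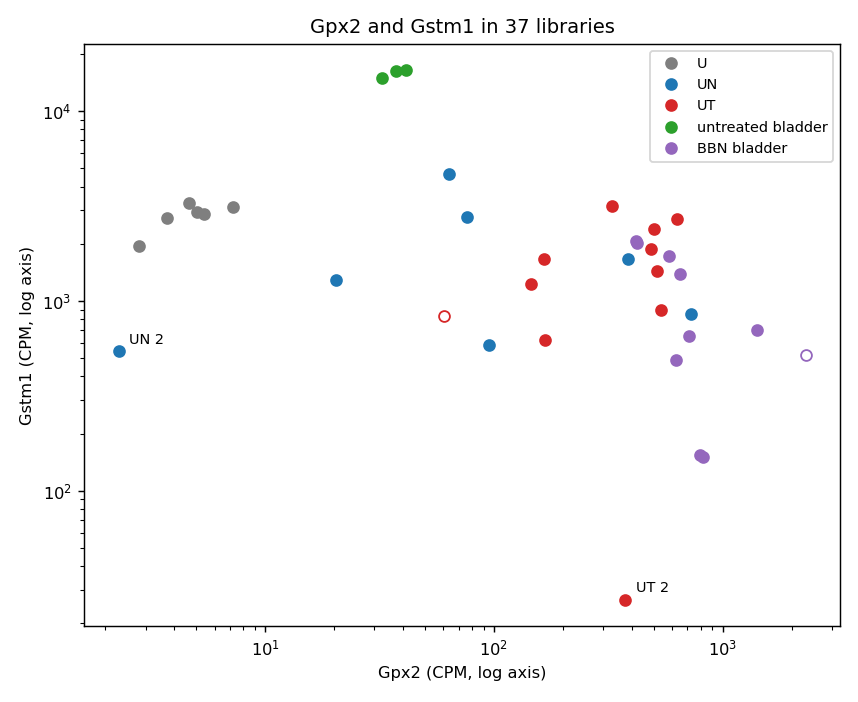
Gpx2 (horizontal) and Gstm1 (vertical) in CPM on log axes in the 37 libraries, coloured by group, with open points for UT 9 and BBN bladder 6. The 3 untreated bladders lie at the upper left of the bladder points, with 32.5 to 41.1 CPM of Gpx2 and over 14853 CPM of Gstm1, and the BBN bladders at the lower right. UT 2 has the lowest Gstm1 (26.7 CPM) and UN 2 the lowest Gpx2 (2.28 CPM).

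Txnrd1, the cytosolic thioredoxin reductase, also rose on the cancerous side. It had 45.7 to 60.9 CPM in U (median 57.2), 41.6 to 221 CPM in UN (median 80.6) and 89.1 to 274 CPM in UT (median 158). No UT library overlapped with U, 5 of the 7 UN libraries were above the U range, and UN 2 was inside it and UN 6 below. Txnrd1 rose 2.34-fold in UT (log2 1.23 ± 0.24 SE, FDR = 0.000331), and in UN its log2 fold change of 0.64 ± 0.25 (FDR = 0.0857) was under 2-fold. In the bladder the untreated libraries had 84.1, 92.2 and 92.3 CPM. The 6 deeper BBN bladders had 155 to 310 CPM, all above them, and BBN bladders 1, 3 and 4 had 24.2 to 26.7 CPM, all below. Over the 9 BBN bladders Txnrd1 was not called (FDR = 0.294), and without the shallow 3 it was, at a log2 fold change of 1.45 (FDR = 0.000942).

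The shallow bladders set apart most of the 10 genes in the same way. BBN bladders 1, 3 and 4 had 61.6 to 73.1 CPM of Nfe2l2, 13.7 to 21.9 CPM of Gclc and 4.22 to 8.21 CPM of Hmox1, and the 6 deeper BBN bladders had 236 to 453, 93.5 to 617 and 23.5 to 180.5 CPM. None of these ranges overlapped, and only for Gpx2 were the shallow libraries the higher ones without overlap. Without them 4 of the 10 genes were called in the bladder (Gpx2, Slc7a11, Txnrd1 and Gstm1), where 22.3% of all genes were called. The RNA quality of these libraries was also low in the records of the study, and cannot be told apart from their depth. Their summed urothelium markers were 1563 to 3222 CPM, below the 6918 to 12027 CPM of the deeper BBN bladders, and their summed erythroid markers 912 to 3924 CPM, above the 26.3 to 666 CPM of the deeper ones. The part of these markers was not tested. Without the shallow libraries, Nqo1 and Gclc had log2 fold changes of 0.14 (FDR = 0.724) and 0.07 (FDR = 0.926). BBN bladder 6, outside the main tests, was not shallow, with 11053474 counts. It had 20.4 CPM of Gclc, 40.6 CPM of Txnrd1 and 164 CPM of Nfe2l2, each below the deeper BBN bladders of the main tests. Its Hmox1, at 24.8 CPM, lay inside their range.

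Whether the cancerous side differs from the noncancerous side is the question of UT against UN. The log2 fold changes of the 10 genes ran from -0.26 ± 0.51 SE (Gstm1) to 0.81 ± 0.63 (Gpx2), with a median of 0.62 beside -0.01 over all genes, and 0 genes were called by edgeR. DESeq2 also called 0 of them, and limma called 1, Gpx2, at a log2 fold change of 2.12 in the fit with the mouse as a random effect. Clearest by rank were Txnrd1 (log2 0.58 ± 0.22, FDR = 0.0881) and Gclm (log2 0.66 ± 0.27, FDR = 0.107), both under 2-fold. An unadjusted p under 0.05 was given by edgeR for 2 of the 10, Gclm (p = 0.021) and Txnrd1 (p = 0.0145), and for 29.9% of all genes. For all 10 genes the UT and UN ranges overlapped, and 0.0128% of all genes had ranges that did not. Without UN 3, the UN library with the most Gpx2 (725 CPM), the calls were Gpx2 and Gsta4, higher in UT by log2 fold changes of 1.76 and 1.06, and without UN 7, the UN library with the most Slc7a11 (63.6 CPM), Slc7a11 was, at 1.22.

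UT and UN could be set side by side within 6 mice. Gpx2, Txnrd1, Gclm, Gclc, Hmox1 and Nfe2l2 were higher on the UT side in 4 of 6 mice each, Slc7a11 and Gsta4 in 3, Gstm1 in 2 and Nqo1 in 1. The mean difference in log2(CPM + 1) was 1.82 ± 2.87 (SD over mice) for Gpx2 and -0.41 ± 1.52 for Nqo1, and for each gene the SD exceeded the mean. With the mouse as a replicate block, 0 of the 10 genes were called and Nqo1 and Gclc turned to log2 fold changes of -0.69 and -0.09.

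Between untreated organs, the CPM of all 10 genes was lower in the ureter than in the bladder, and no U library reached any untreated bladder for any of them. The same held for 39.5% of all genes tested. In edgeR, 5 of the 10 were called lower in U, where 15.8% of 18757 genes were called (7.04% higher and 8.73% lower). Nqo1 was 8.18-fold lower (log2 -3.03 ± 0.54 SE, FDR = 0.000551), Gpx2 6.16-fold lower (log2 -2.62 ± 0.88, FDR = 0.0471), and Gstm1 4.53-fold lower (log2 -2.18 ± 0.60, FDR = 0.0151). Gsta4 (log2 -1.67 ± 0.49, FDR = 0.0221) and Nfe2l2 (log2 -1.27 ± 0.39, FDR = 0.0294) were lower by smaller amounts. The Nfe2l2 call was lost with RNA integrity as a covariate (FDR of up to 0.186 over the settings) and without untreated bladder 3, and the Gpx2 call without untreated bladder 1 or 3 (FDR of up to 0.129). Both organs came from the same 3 mice, and with the mouse as a replicate block 6 of the 10 genes were called, Gclc with them (log2 -1.47, FDR = 4.63e-06), where 30% of all genes were called. With the libraries of a mouse summed, which leaves 3 samples a group, only Nqo1 stayed called. Summed urothelium markers were 1831 to 3660 CPM in U and 23321 to 24444 CPM in the bladder, and their part in these differences was not tested.

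The change with BBN could be compared between organs by an interaction of UN against U with BBN bladder against untreated bladder. Gstm1 was called, with a change in the ureter that was higher than that in the bladder by 2.93 ± 0.74 (SE) on the log2 scale (FDR = 0.043), where 2.33% of all genes were called (1.65% higher and 0.682% lower). This call was lost when any of the 3 untreated bladders was left out (FDR of up to 0.131). Ureters and bladders in part come from the same mice, which the main fit does not model. Gstm1 was no longer called once mouse was a random effect, or once each mouse's libraries were summed (FDR of up to 0.302). For Gpx2 the difference was 0.39 ± 1.10 (FDR = 0.918) and for Slc7a11 -0.36 ± 0.64 (FDR = 0.854), and for Nqo1 it was 1.73 ± 0.67 (FDR = 0.261). Apart from Gstm1, none of the 10 genes was called, and the SEs of 0.48 to 1.10 show how wide these estimates are.

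Urothelium marker levels were set beside the 10 genes library by library, and no correlation between them was computed. UN 2, with 32.9 CPM of summed urothelium markers, had the lowest UN value of Gpx2, Nqo1, Gsta4 and Gstm1. UN 6, with 1141 CPM of them and also the shallowest ureter library, had the lowest UN value of the other 6 genes. UN 3 and UN 7, with 8574 and 7062 CPM, had the highest UN values of 8 genes. UN 1 and UN 4, with 7945 and 5578 CPM of the markers, had 76.0 and 63.3 CPM of Gpx2, far from the 725 CPM of UN 3. U libraries had 1831 to 3660 CPM of the markers and at most 7.19 CPM of Gpx2, while UN 9, with 1766 CPM, had 20.4 CPM. The UT libraries had 3607 to 10628 CPM of the markers. The part of tissue makeup in the differences of the ureter was not tested. Without UN 2, UN 6 and UT 4, 5 of the 10 genes were called in UN against U (Gclm and Hmox1 beside Gpx2, Slc7a11 and Nqo1), and 7 in UT against U, where 14.9% and 34.2% of all genes were called.

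**Figure D4:**
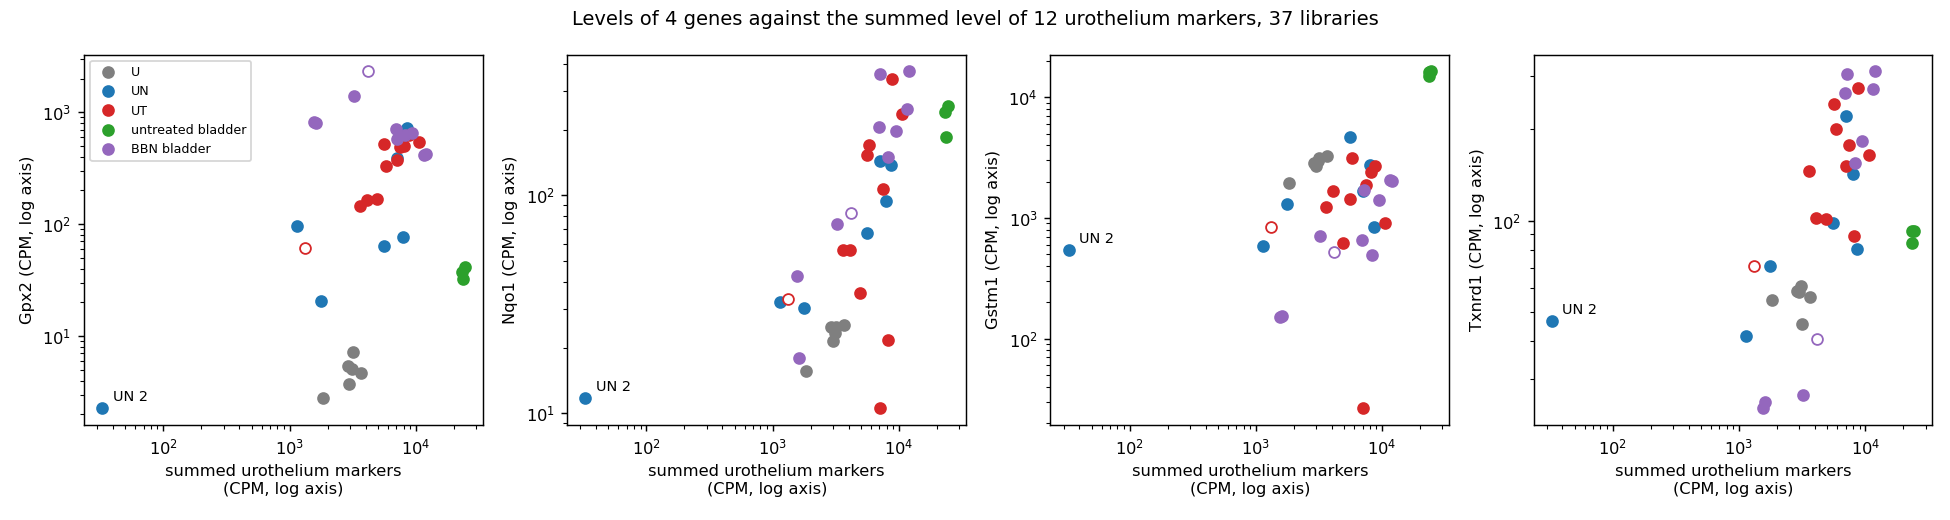
Gpx2, Nqo1, Gstm1 and Txnrd1 (CPM, log axis) against the summed level of 12 urothelium markers (CPM, log axis) in the 37 libraries, coloured by group, with open points for UT 9 and BBN bladder 6. UN 2 lies alone at 32.9 CPM of the markers, and the untreated bladders, at 23321 to 24444 CPM, have the most marker counts but only 32.5 to 41.1 CPM of Gpx2.

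The 10 genes varied together to differing degrees. Over the 18 UT and UN libraries, UT 9 included, Pearson's r of log2(CPM + 1) ranged from 0.05 to 0.92 over the 45 pairs of genes, with a median of 0.67. Gclm and Gsta4 were most alike (r = 0.92), followed by Txnrd1 and Slc7a11 (0.89), Gsta4 and Gpx2 (0.89), and Nqo1 and Gclc (0.87). Gstm1 stood apart, at 0.05 with Gpx2, 0.07 with Hmox1 and at most 0.58 with any other. Over all 37 libraries the pair Gstm1 and Gpx2 was at -0.42. These are descriptions, since libraries share mice, tissue makeup and depth.

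Among 16012 genes with at least 1 CPM in 6 or more libraries, those most like each gene over the 37 libraries were named by Pearson's r. For Gpx2 they were its pseudogene Gpx2-ps1 (r = 0.98), S100a14 and Fxyd4 (both 0.97), and for Gstm1 they were Gstm3 (0.96), Fam174b and Ctse (both 0.90). Because the counting of reads shared by near copies is not given, the likeness of Gpx2-ps1 and of Gstm3 cannot be told apart from shared reads. Nqo1 was most like Aldh3a1 (0.90), an aldehyde dehydrogenase that is also an NRF2 target, then Adh7 and Bnipl (both 0.88). Slc7a11 was most like Lrp8 (0.90), Trp73 and Ajuba, and Hmox1 like Lgmn (0.87), Pla2g7 and Nek6. Txnrd1 was most like Slc35c1 (0.95), Mbp and Trim8, Gclm like Cyb561 (0.94), Arrdc1 and Ppp2r5c, and Gclc like Tmem63b (0.92), Nt5c2 and Usp22. Gsta4 was most like Perp (0.91), Tmem40 and Sdcbp2, and Nfe2l2 like Pak4, Rab40c and Lima1 (all 0.93). No 2 of the 10 genes were among each other's 3 most similar genes.

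The wider pathway was read from 7 lists of 88 genes. In UN against U, 6 of the 85 tested were called higher and 0 lower, or 7.06%, below the 13.5% over all genes. Among the regulators Maff, a small MAF partner of NRF2, was higher (log2 2.35 ± 0.38 SE, FDR = 0.000828), from 0.417 to 1.23 CPM in U and from 1.71 to 8.57 CPM in UN. Among 16 other NRF2 targets the aldo-keto reductase Akr1b8 (log2 2.56 ± 0.46, FDR = 0.00143), Aldh3a1 (log2 2.38 ± 0.86, FDR = 0.0667) and the carbonyl reductase Cbr3 (log2 1.01 ± 0.39, FDR = 0.0885) were higher. Among 21 other transferases Gsto1 (log2 2.54 ± 0.62, FDR = 0.0109) and Gsta1 (log2 2.50 ± 0.84, FDR = 0.0503) were. Of these 6, Maff was called in every setting tried and with any library left out, Akr1b8 and Gsto1 lost their calls with the libraries of a mouse summed (FDR of 0.101 and 0.19), and Gsto1 fell to a log2 fold change of 1.69 at the lowest. Gsta1 was not called without UN 7 or U 2L, with limma-trend, with the random effect or with summed libraries (log2 down to 1.18, FDR of up to 0.399). The same 3 settings ended the calls of Aldh3a1 (log2 down to 1.16, FDR of up to 0.454) and Cbr3 (FDR of up to 0.345), and that of Cbr3 was lost also with no filter and without UN 2, UN 6 and UT 4 together. With 1 library left out, Aldh3a1 was not called without UN 3, UN 7 or any U library but U 3L, and Cbr3 was not called without any of those, UN 2, or UT 4, 5L, 8 or 10. Glutathione supply (12 genes), peroxide and superoxide enzymes (14), the thioredoxin system (7) and NADPH supply (6) had 0 calls by edgeR, and 8 of these 39 genes had an unadjusted p under 0.05, as did 29.5% of all genes.

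In UT against U, 12 of these 85 rose and 21 fell by the same call, or 38.8% beside 32.9% over all genes, and the directions differed between lists. Among the 16 NRF2 targets tested 4 were higher and 0 lower, or 25%, where 18.6% of all genes were called higher and 14.4% lower. Aldh3a1 (log2 3.03 ± 0.86 SE, FDR = 0.00616) and Akr1b8 (log2 2.92 ± 0.45, FDR = 5.34e-05) were in the lead. Maff (log2 2.53, FDR = 3.54e-05) and Mafk (log2 1.11, FDR = 0.00517) were higher among the regulators. With RNA integrity as a covariate Mafk was under 2-fold (log2 0.78). Of the 12 genes of glutathione supply 3 were higher and 2 lower, or 41.7% beside 32.9% over all genes. Oplah was among the lower (log2 -1.78). Gsr, the glutathione reductase that returns oxidized glutathione to its reduced form, rose 3.10-fold (log2 1.63 ± 0.31, FDR = 0.000277), from 53.1 to 63.0 CPM in U and from 130 to 383 CPM in UT. Ggt1, which cleaves glutathione outside the cell, had a fitted log2 fold change of 6.68. It is abundant in kidney tubule, and stood at 179 CPM in UT 4, the library with kidney markers, against a median of 1.03 CPM in UT. The part of the kidney markers in this value was not tested, and without UT 4, UN 2 and UN 6 it was 2.44 (FDR = 0.0261).

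In the same comparison of UT with U, peroxide and superoxide enzymes were called lower in 7 of 14 genes and higher in 0, where 14.4% of all genes were lower and 18.6% higher. Catalase (Cat) fell 5.83-fold (log2 -2.54 ± 0.49 SE, FDR = 0.00031), and Sod1 (log2 -1.59 ± 0.37, FDR = 0.00148) and Sod3 (log2 -1.54 ± 0.47, FDR = 0.0103), superoxide dismutases inside and outside the cell, fell too. Of the NADPH-supplying enzymes, Me1 (log2 -2.72 ± 0.61, FDR = 0.00108), Tkt (log2 -1.55 ± 0.34) and Taldo1 (log2 -1.18 ± 0.27) fell, and in the thioredoxin system the mitochondrial Txnrd2 fell (log2 -1.61 ± 0.25, FDR = 5.51e-05) while Txnrd1 rose. Of 21 other transferases 8 were lower, led by Gstz1 (log2 -2.72 ± 0.56, FDR = 0.000517), and 3 were higher, led by Gsto1 (log2 3.87 ± 0.65, FDR = 9.46e-05). Cat and Me1 are abundant in fat, and the adipocyte markers fell along the same order of groups, from a median of 14521 CPM in U to 7185 CPM in UN and 1668 CPM in UT. Summed smooth muscle markers fell in that order too, with medians of 2857, 1016 and 807 CPM. The part of these markers in these decreases was not tested. Of the genes named here as falling, only Me1 (log2 -1.62) and Txnrd2 (log2 -1.27) were also called lower in the bladder after BBN. Untreated bladders had 22.9 to 475 CPM of adipocyte markers.

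For UT against UN, calls among the 85 genes were 2 higher (Gsr and Ggt1) and 10 lower (among them Me1, Gstz1, Sod1, Cat and Gpx4), or 14.1% beside 10.8% over all genes. Gsr was 2.01-fold higher in UT (log2 1.01 ± 0.29 SE, FDR = 0.0417). The 3 that fell furthest were Me1 (log2 -2.13), Gstz1 (log2 -1.83) and Gstm7 (log2 -1.49), and Ggt1 turned to a log2 fold change of -0.87 without UT 4, UN 2 and UN 6. None of the 12 was called without those 3 libraries, with RNA integrity as a covariate or with the mouse as a replicate block, where 0 of all genes were called.

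In the bladder after BBN, calls among 86 genes were 6 higher and 13 lower, or 22.1% beside 12.6% over all genes. The fall of Gstm1 was shared by 3 of its mu-class relatives, Gstm3 (log2 -4.58 ± 0.59 SE, FDR = 0.000332), Gstm4 (log2 -3.51 ± 0.40, FDR = 0.000146) and Gstm7 (log2 -3.27, FDR = 0.000528), and Gstt3, a theta-class enzyme, fell by 1.83 on the log2 scale. Gsto1 (log2 3.49 ± 0.60, FDR = 0.00233) and Gsta1 (log2 3.21, FDR = 0.0464) rose, as both had in UT and UN. NRF2 targets went both ways, with 2 higher (Akr1b8, log2 1.67, and Cbr3, log2 1.60) and 5 lower, led by the glucuronidation genes Ugt1a6a (log2 -3.30 ± 0.42, FDR = 0.000311) and Ugdh (log2 -2.39 ± 0.50, FDR = 0.00876). Ugt1a6a had 433, 506 and 551 CPM in the untreated bladders and 8.74 to 78.6 CPM in the BBN bladders. In the lists of glutathione supply, peroxide and superoxide enzymes, thioredoxin and NADPH supply, the calls went both ways. Oplah (log2 -2.68), Idh1 (log2 -1.72), Me1 (log2 -1.62) and Txnrd2 (log2 -1.27) fell, and Ggct (log2 1.67) and Prdx4 (log2 1.40) rose. The regulators had 0 of 9 genes called by edgeR, and 2 of them had an unadjusted p under 0.05, as did 28.3% of all genes.

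Untreated organs also differed in the wider pathway. In U against untreated bladder, 16 of 87 genes were higher and 12 lower (32.2% beside 15.8% over all genes), and the lower ones included 7 of 17 NRF2 targets (Aldh3a1, log2 -2.68, Ugt1a6a, log2 -2.63, and Osgin1, log2 -2.44, the furthest). The Aldh3a1 call was lost without untreated bladder 1 or 3, with limma-trend, with the random effect and with summed libraries (FDR of up to 0.255). Higher in the ureter were Gstz1 (log2 4.68 ± 0.69 SE, FDR = 0.000106), the transsulfuration enzymes Cth (log2 4.01 ± 0.65) and Cbs (log2 3.17 ± 0.78), Gpx3 (log2 3.84 ± 0.83), Cat (log2 3.32 ± 0.57) and Me1 (log2 2.63 ± 0.82, lost without any of the 3 untreated bladders). Summed adipocyte markers were 12288 to 16507 CPM in U and 22.9 to 475 CPM in the untreated bladders, and their part in these differences was not tested. In the interaction with BBN, 6 of 87 genes were called higher and 1 lower, or 8.05% beside 2.33% over all genes. Higher, with the lower change in the bladder, were 4 mu- and theta-class transferases beside Gstm1, and Ugt1a6a (log2 3.03) and Ugdh (log2 2.38). The transferases were Gstm3 (log2 3.94), Gstm4 (log2 2.96), Gstm7 (log2 2.82) and Gstt3 (log2 2.05). For Cth the interaction was called in the other direction (log2 -2.43). These list calls were not tried in the other settings.

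**Figure D5:**
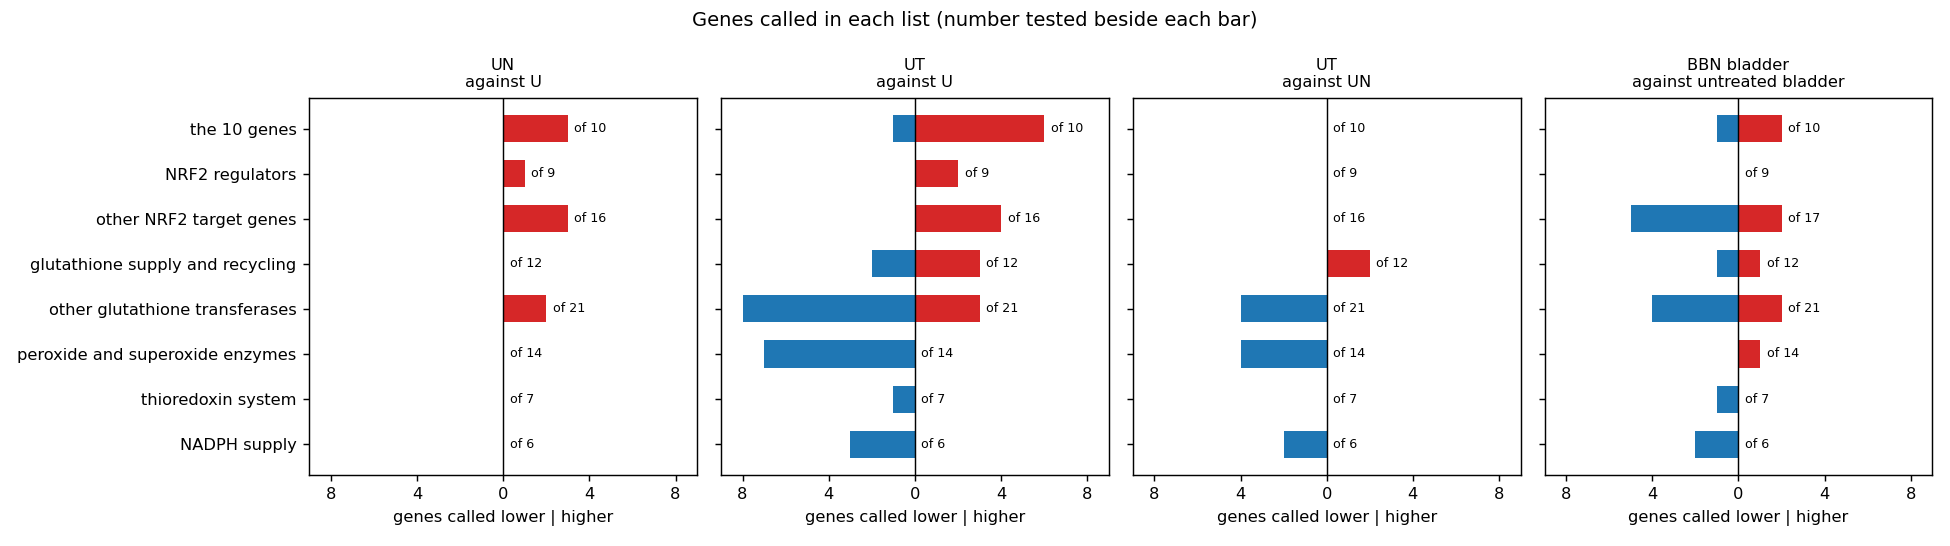
Number of genes called higher (red, right) and lower (blue, left) in each list of the pathway and among the 10 genes, in 4 comparisons, with the number tested beside each bar. In UT against U, 6 of the 10 genes are higher and 1 lower, while 7 of 14 peroxide and superoxide enzymes are lower.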

How the data were processed

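The authors sequenced RNA of 37 libraries and deposited estimated counts per gene symbol (expected counts, not normalized, 21.1% of the nonzero values fractional), for which the submitters' notes name TopHat2 2.1.1 and Cuffdiff 2.2.1 and the GRCm38/mm10 genome. How strand and reads shared by similar genes were counted is not given in the sources used here. Counts were rounded. The test was the quasi-likelihood test of edgeR 4.0.16 (R 4.3.3) after TMM and filterByExpr, with calls at FDR under 0.1 and at least 2-fold. SEs were taken from the fold change and the test statistic. The fits were UT, UN and U (10, 7 and 6 libraries), the bladders (9 and 3), and UN, U and both bladder groups together for the organ comparison and the interaction. CPM used the column total, and exon lengths for per-kilobase levels came from GENCODE vM21. Promoter windows and their coordinates came from the RefSeq promoter sequences on GRCm38.p6. The procedure was tested on simulated data. Tables and figures were made in Python 3.11.15.

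The 10 genes, the 7 pathway lists and the marker lists were chosen with earlier results of these data known. Named were the 10 genes and the 3 genes most correlated with each of the 10. Of the up to 3 called genes of largest fold change per list and comparison, some are not named. Other genes are named after their values were seen. In each comparison the alternatives were run for the 10 genes and those up to 3, and for the interaction for the 10 genes alone. The number of a UT or UN library is that of its mouse. Over the 6 pairs the median correlation of deviations from the group means was -0.06, and -0.002 over 64 pairs of different mice. Libraries of a group differed by at least 7.71 in chi-square per degree of freedom, so none was counted as a copy. U and UT 5 include both ureters of a mouse, so p-values in part measure the spread within mice. All U libraries and untreated bladders fall in the first of 2 ranges of library codes, with 1 UN, 2 UT and 3 BBN bladder libraries of the main tests in the second. Alternatives were DESeq2 1.42.0, limma 3.58.1, RLE normalization, no filter, RNA integrity or code range as a covariate, the mouse as a block or random effect, libraries of a mouse summed, added or left-out libraries, and, chosen after seeing the data, leaving out UN 2, UN 6, UT 4 and BBN bladders 1, 3 and 4 together.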

Additional observations from a re-analysis of the deposited data

Results flagged for a closer look

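In 7 of the 40 combinations of gene and group that could be tested this way, a library lay far from the rest of its group on the log scale, where chance flags about 1 in 20 groups. Hmox1 was 1.93 CPM in UN 6, where the next UN library had 29.7 CPM, and 349 CPM in UT 5R, where the next UT library had 125 CPM. Gstm1 was 26.7 CPM in UT 2, with the next at 624.9 CPM, and 1950 CPM in U 2L, with the next at 2716 CPM. Nqo1 was 15.7 CPM in U 2L, Gclc 45.3 CPM in U 3L and Gclm 67.3 CPM in U 1R, each apart from a narrow U group. UN 6 is the shallowest ureter library. UT 5R had the highest UT value of 7 of the 10 genes. Between organs, the change of Gstm1 with BBN differed by 2.93 on the log2 scale, higher in UN than in the bladder, by the interaction test. That call was lost when any untreated bladder was left out. It was also lost once mouse was a random effect, or once each mouse's libraries were summed.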

How the results depend on the processing

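Over 629 recomputed values of the 19 calls of the 10 genes, 0 changed direction and 50 were no longer called. The number of the 10 genes called ran from 2 to 4 in UN against U (3 with all libraries), from 6 to 7 in UT against U (7), from 0 to 2 in UT against UN (0, and 2 without UN 3), from 2 to 3 in the bladder (3), from 3 to 6 in U against untreated bladder (5) and from 0 to 1 for the interaction (1) when single libraries were left out. The low of 3 in U against untreated bladder came without untreated bladder 3, and the interaction was lost without any of the 3 untreated bladders. With the libraries of a mouse summed, 1 gene was called in UN against U (Gpx2), 1 in U against untreated bladder (Nqo1) and 0 for the interaction, and fewer samples entered. With the mouse as a random effect 1 gene was called in UT against UN and 0 for the interaction, and limma-trend called 1 in UT against UN. Leaving out the libraries that stand apart gave 5 in UN against U and 2 for the interaction (Gstm1 and Nqo1). The mouse as a replicate block gave 0 in UT against UN and 6 in U against untreated bladder (Gclc added). The 12 calls of the wider pathway lists in UT against UN were also lost with it, and no other comparison was fitted with a block.

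Genes that had not been called turned sign as follows, and the cause was not tested. In UN against U, limma-trend gave -0.099 for Gclc and -0.108 for Gsta4, and the mouse as a random effect -0.017 and -0.155. Leaving out single libraries moved Gclc between -0.035 and 0.297 and Gsta4 between -0.189 and 0.32. In UT against UN, Nfe2l2 was -0.019 with RNA integrity as a covariate and -0.002 without the libraries that stand apart, and with the replicate block Nqo1 was -0.687 and Gclc -0.094. Gstm1 ran from -0.416 to 0.192 over single libraries left out (above 0 without UN 4). In the bladder, Nqo1 was 0.067 with RNA integrity as a covariate and 0.144 without the shallow libraries, where Gclc was 0.071. Hmox1 was -0.375 with DESeq2 and -0.293 with limma-trend, and ran from -0.465 (without BBN bladder 5) to 0.443. Gsta4 was 0.038 with RLE, with DESeq2 and with all 10 BBN bladders, 0.078 with the code range, and ran from -0.281 to 0.027. In U against untreated bladder, RNA integrity as a covariate gave 0.261 for Hmox1 and 0.038 for Txnrd1. For the interaction, Gclm was -0.002 with that covariate, Gsta4 ran from -0.068 to 0.482, and Gpx2 was -0.738 with limma-trend, -0.89 with the random effect, -0.036 with the code range and ran from -0.525 to 0.762. Ggt1, called in UT against UN, was -0.774 with DESeq2, -0.866 without the libraries that stand apart and ran from -0.706 (without UT 4) to 4.348.

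Over all genes, UT against UN gave 1683 calls, 0 with RNA integrity as a covariate, with the replicate block or without the libraries that stand apart, 1 with these groups alone, 4 with libraries summed, 535 without the shallow library, 864 with all 11 UT libraries, 917 with the random effect and 2641 without a filter. UN against U gave 2108 (1851 higher and 257 lower), 1748 with limma-trend, 1607 (861 and 746) with the random effect and 160 with libraries summed. The bladder gave 2258 (1274 higher and 984 lower), and 5586 (4430 and 1156) with DESeq2, 5402 with the code range and 3485 without the shallow libraries. U against untreated bladder gave 2958, and 4602 with the replicate block, 4395 and 4296 without the libraries that stand apart or are shallow, and 1514 with libraries summed. The interaction gave 437, from 96 with libraries summed to 1833 without the libraries that stand apart. RLE moved the median of all genes by at most 0.106 from TMM. A mouse random effect was not run for the bladders, which have 1 library per mouse. The lowest counts behind a level in U were 45.5 for Gpx2 and 63.2 for Slc7a11.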
